A study of Rattus norvegicus with 12 samples.

Results

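Oligodendrocytes are the glial cells that wrap axons in myelin, and their gene programme was followed here through 29 marker genes measured on 12 expression arrays of rat hippocampal neuron cultures. The genes were taken from a list of gene symbols and fall into 8 precursor genes, 5 genes of newly formed oligodendrocytes and 16 myelin or mature genes. A probe was matched by RefSeq transcript for 26 of them (Nkx2-2, Lhfpl3 and Enpp6 had none), and the brightest probe stood for each gene. Of the 26, 24 were bright enough to test (6 precursor, 4 newly formed and 14 myelin genes), out of 21248 genes or unnamed targets tested on the arrays. Ermn and Nkx6-2 were not tested, with spots well above background on 3 and 8 of the 12 arrays.

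The cultures came from hippocampi of embryonic day 18 Wistar rats and were grown for 14 to 15 days in vitro. They were blocked with 50 µM GYKI-52466, an antagonist of AMPA-type glutamate receptors, together with 10 µM MK-801, an antagonist of NMDA-type receptors, or were left untreated. The groups were blocked 9 h, untreated 9 h, blocked 26 h and untreated 26 h, with 3 independent cultures and so 3 arrays in each. No promoter, Cre line or sort selected a cell type, so each array reads all cells of a dish. In such bulk RNA, fewer cells of a type and less RNA per cell cannot be told apart.

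Between 77.64% and 86.75% of the spots of an array were well above background, and no value of a member probe was saturated. The 6 slides were scanned on 2 days that cross the groups, with blocked 26 h and untreated 9 h arrays on day 1, and blocked 9 h and untreated 26 h arrays on day 2. At either time, blockade therefore cannot be told apart from scan day. The effect averaged over both times, and the 26 h minus 9 h effect averaged over treatments, are balanced over days and slides. Replicate 1 arrays were on slides 1 and 4, replicate 2 on slides 2 and 5, and replicate 3 on slides 3 and 6. A difference between replicate numbers is therefore also one between slides. The marker genes Cspg4, Bcas1 and Mbp were well above background on all 12 arrays, so transcripts of each stage were measured. The 7 neuronal markers, among them Map2 and Rbfox3, were all measured, and their summed signal spanned 22.3 to 26.4 in blocked 9 h arrays, 19.1 to 24.3 in untreated 9 h arrays, 21.4 to 24.7 in blocked 26 h arrays and 21.1 to 25.6 in untreated 26 h arrays, in units of the array's 75th percentile.

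In the rodent brain, oligodendrocyte precursors carry the proteoglycan NG2 (Cspg4) and the PDGF receptor alpha, divide, and make synapse-like contacts with neurons through which they sense glutamate. Cells leaving the precursor state pass through a short-lived stage marked by Gpr17, Bcas1 and Enpp6 before the regulator Myrf turns on the genes of compact myelin. Neuronal activity is known to act on both the precursors and myelination, and precursors have AMPA and NMDA receptors of their own. Signals are given below as a log2 level, the log2 of the processed spot signal minus the array's 75th percentile, which compares arrays for a probe but not probes with each other.

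The promoter letters are shown for a precursor gene and a newly formed gene that changed with blockade (Cspg4, Neu4) and for myelin genes that differed by replicate number (Mag, Cnp). Of the 29 members, 21 had an entry in the RefSeq promoter table, with 22 promoters in all, 2 of them of Mbp. The windows are the 250 bases upstream of the gene start on build GRCr8, at chr8:66160692-66160941 (+ strand), chr9:101844011-101844260 (+ strand), chr1:95291045-95291294 (- strand) and chr10:86011254-86011503 (+ strand). Each is printed 5′ to 3′ on its gene's strand, and capitals mark 3 searched motifs on both strands, which do not overlap one another here: ACAAAG, a form of the Sox core, CTGGCAC, a form reported for Myrf, and CAGCTG, an E-box of the kind Olig factors can bind.
Cspg4: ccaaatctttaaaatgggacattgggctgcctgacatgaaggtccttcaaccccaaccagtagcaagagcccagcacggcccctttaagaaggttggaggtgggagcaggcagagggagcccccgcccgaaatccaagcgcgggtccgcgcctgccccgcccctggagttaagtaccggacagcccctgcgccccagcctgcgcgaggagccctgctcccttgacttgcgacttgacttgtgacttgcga
Neu4: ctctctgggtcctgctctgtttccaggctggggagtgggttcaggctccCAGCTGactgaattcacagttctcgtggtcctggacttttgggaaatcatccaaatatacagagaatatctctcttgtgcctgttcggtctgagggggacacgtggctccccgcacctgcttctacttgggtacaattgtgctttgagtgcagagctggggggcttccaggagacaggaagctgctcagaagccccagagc
Mag: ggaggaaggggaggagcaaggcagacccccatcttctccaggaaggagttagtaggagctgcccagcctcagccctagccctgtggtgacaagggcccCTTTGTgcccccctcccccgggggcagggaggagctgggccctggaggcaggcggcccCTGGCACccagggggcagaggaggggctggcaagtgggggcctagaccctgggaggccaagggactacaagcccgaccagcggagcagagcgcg
Cnp: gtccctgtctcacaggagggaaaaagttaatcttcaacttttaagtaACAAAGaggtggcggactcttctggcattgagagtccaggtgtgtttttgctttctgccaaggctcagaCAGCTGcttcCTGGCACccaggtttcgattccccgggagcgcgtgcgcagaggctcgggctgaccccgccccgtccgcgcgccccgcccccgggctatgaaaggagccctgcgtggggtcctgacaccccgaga
The Cspg4 window held none of the 3 motifs, Neu4 held CAGCTG, Mag held ACAAAG and CTGGCAC, and Cnp held all 3. Of the other myelin genes that differed by replicate number, Fa2h, Gal3st1 and Cldn11 held none of the motifs. Aspa held CAGCTG, and an Mbp window held ACAAAG and CAGCTG. Mag and Cnp therefore do not stand for the motif content of that set. Over the 22 member windows, ACAAAG was present in 6, CTGGCAC in 4 and CAGCTG in 7, against 16.3%, 3.78% and 11.97% of all 33469 promoters of the same length. These matches describe letters only and say nothing of binding.

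**Figure D1:**
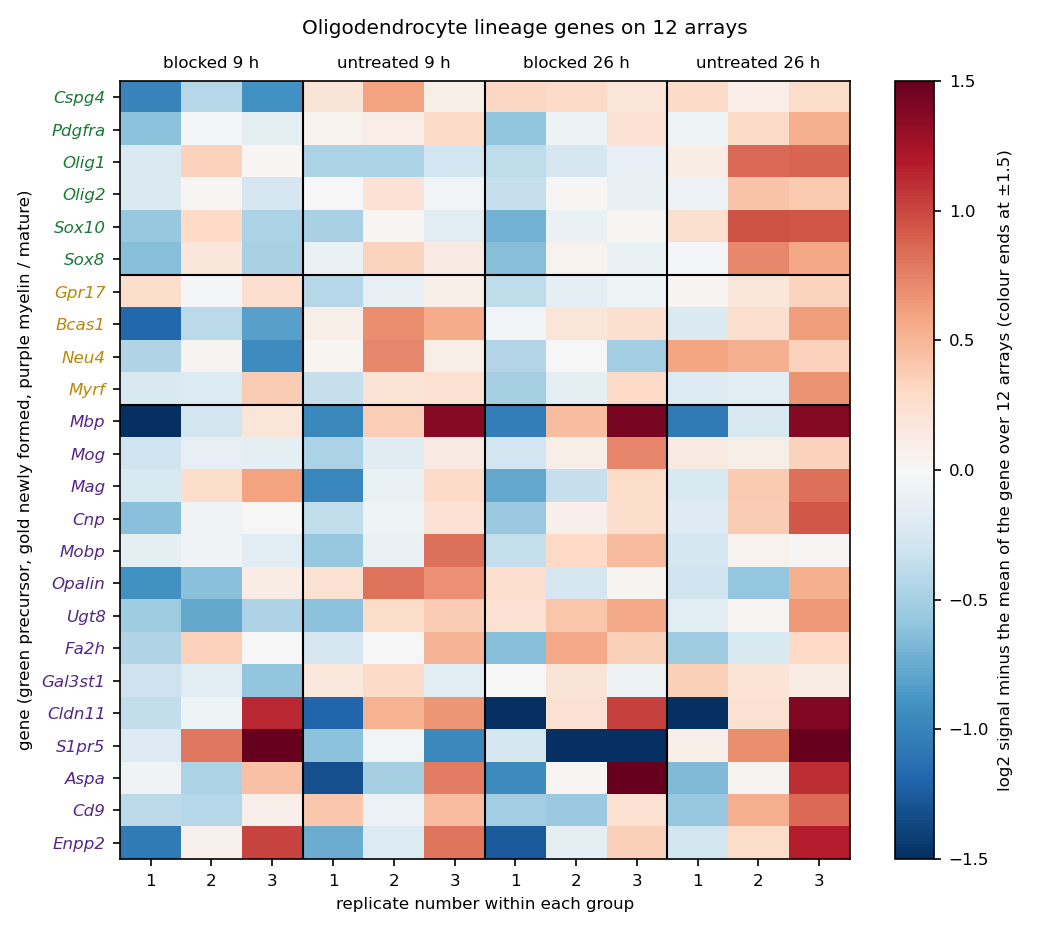
Log2 level of each of the 24 tested genes minus its own mean over the 12 arrays (colour, ends at ±1.5). Columns are the arrays, blocked left of untreated at each time, with replicates 1 to 3 in each group. Rows are the genes by stage. Genes of the myelin list such as Mbp, Mag and Enpp2 are lowest in replicate 1 and highest in replicate 3 of all 4 groups. Cldn11 has the same order, with replicate 1 not well above background outside blocked 9 h. Cspg4 and Bcas1 are low in the 3 blocked 9 h arrays.

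Among the precursor genes 1 of 6, Cspg4, fell under blockade by the averaged measure. Averaged over 9 h and 26 h, all 6 tested precursor genes had a negative change, against 55.5% of all genes tested. Their median was -0.45 log2 against -0.02 over all genes tested, of which 4.45% were called (2.24% higher, 2.21% lower, by limma with Benjamini-Hochberg adjustment, threshold 0.05).

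Cspg4, the gene of the NG2 proteoglycan on the precursor surface, had log2 levels of 0.08, 0.66 and 0.18 in blocked 9 h arrays and 1.28, 1.69 and 1.17 in untreated 9 h arrays. At 26 h it had 1.39, 1.37 and 1.26 in blocked arrays and 1.37, 1.18 and 1.36 in untreated arrays. The blocked 9 h arrays alone were low, below every other array, and the other 9 arrays overlapped. Cspg4 fell by 0.52 ± 0.12 (SE) averaged over both times (limma adjusted p = 0.0394), and this rests on 9 h, where it fell by 1.07 ± 0.17, 2.10-fold (limma adjusted p = 0.00259), against a change of 0.04 ± 0.17 at 26 h. Within scan days, blocked 26 h minus untreated 9 h was -0.04 on day 1, and blocked 9 h minus untreated 26 h was -0.999 on day 2. Each of these differences mixes blockade with time.

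Pdgfra, the receptor that drives precursor division, had log2 means of 0.73 ± 0.31 in blocked and 1.13 ± 0.12 in untreated 9 h arrays (SD, n = 3 each), and 0.84 ± 0.41 in blocked and 1.24 ± 0.30 in untreated 26 h arrays. Blocked lay below untreated in 6 of 6 same-numbered pairs, by 0.40 log2 averaged over both times. Olig2, the transcription factor that sets the lineage, was also lower in 6 of 6 pairs, with a change of -0.30 ± 0.11 (SE). Sox8 (-0.55 ± 0.19) was lower in 6 of 6 and its relative Sox10 (-0.51 ± 0.21) in 5 of 6. These 4 genes did not pass in the plain fit (limma adjusted p = 0.161 to 0.25) and passed with the replicate number as a block (limma adjusted p = 0.00439 to 0.0308).

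Olig1, a partner of Olig2 in the lineage, had differences of opposite sign at the 2 times. Its log2 levels were 2.71, 3.28 and 2.95 in blocked 9 h arrays and 2.45, 2.45 and 2.65 in untreated 9 h arrays. At 26 h they were 2.54, 2.68 and 2.80 in blocked arrays, against 3.04, 3.78 and 3.80 in untreated arrays. The groups did not overlap at either time, higher in blocked at 9 h and lower in blocked at 26 h. Averaged, Olig1 changed by -0.20 ± 0.15 (limma adjusted p = 0.596).

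Genes of newly formed oligodendrocytes had a median averaged change of -0.40, with all 4 tested genes negative and 1 called lower. Of all genes, 55.5% were negative and 2.21% were called lower. Neu4, a sialidase, had log2 levels of -5.33, -4.84 and -5.82 in blocked 9 h arrays and -4.85, -4.16 and -4.79 in untreated 9 h arrays. At 26 h it had -5.32, -4.88 and -5.41 in blocked arrays and -4.29, -4.35 and -4.54 in untreated arrays. Blocked lay below untreated in 6 of 6 same-numbered pairs, without overlap at 26 h and with overlap at 9 h. Neu4 fell by 0.77 ± 0.18, 1.71-fold (limma adjusted p = 0.0434). By day, blocked 26 h minus untreated 9 h was -0.60 on day 1, and blocked 9 h minus untreated 26 h was -0.94 on day 2, each mixing blockade with time.

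Bcas1, a marker of the early myelinating stage, had log2 levels of 0.03, 0.81 and 0.40 in blocked 9 h arrays and 1.30, 1.91 and 1.76 in untreated 9 h arrays. At 26 h it had 1.17, 1.39 and 1.45 in blocked arrays and 0.98, 1.45 and 1.84 in untreated arrays. As for Cspg4, only the blocked 9 h arrays stood below all others. It fell by 1.24 ± 0.25 at 9 h (limma adjusted p = 0.00766), and the averaged change of -0.67 ± 0.18 did not pass (adjusted p = 0.0706, or 0.00474 with the replicate block, limma). A second Bcas1 probe of the same transcript disagreed in part, with -0.83, -0.23 and -0.84 in blocked 9 h arrays against -0.44, -0.29 and -0.29 in untreated 9 h arrays, and its blocked 9 h arrays overlapped the untreated ones. On that probe blocked minus untreated was -0.30 at 9 h and -0.61 at 26 h, given with no test.

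Gpr17, a receptor of the committed precursor, changed by -0.03 ± 0.11 averaged over both times, with 0.31 at 9 h and -0.38 at 26 h. Myrf, the regulator of the myelin genes, changed by -0.13 ± 0.21. Neither passed for the averaged blockade with or without the replicate block, and Gpr17 at 26 h passed with the block alone (limma adjusted p = 0.0368).

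**Figure D2:**
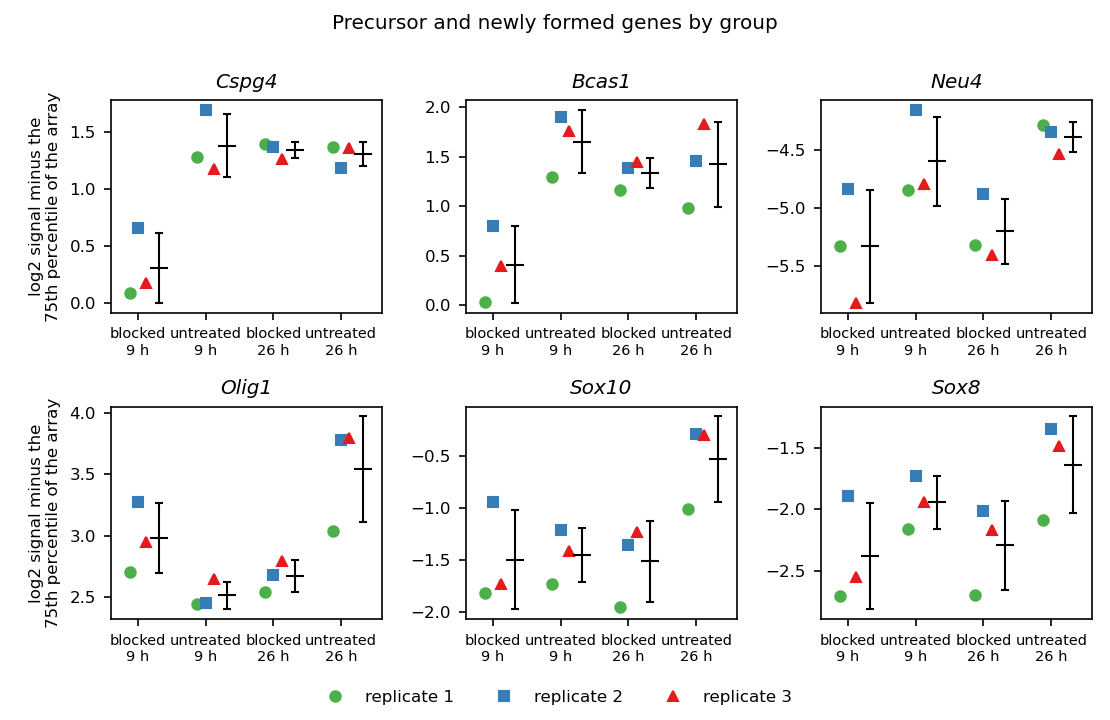
Log2 level of 6 precursor and newly formed genes by group, blocked left of untreated at each time. Coloured points are the single arrays by replicate number and the black bar is the mean ± SD (n = 3). Cspg4 and Bcas1 are low in blocked 9 h arrays alone, Olig1 and Sox10 have their highest mean in untreated 26 h arrays, and Neu4 is lower in blocked arrays at both times.

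None of the 14 tested myelin genes passed for the averaged blockade (0 called by limma, 1 with an unadjusted p under 0.05, Gal3st1). Their median was -0.23 with 10 of 14 negative (S1pr5 among them), against 55.5% of all genes. With the replicate block 2 passed, Gal3st1, which makes the myelin lipid sulfatide (limma adjusted p = 0.0163), and Cnp, the myelin-associated phosphodiesterase (limma adjusted p = 0.0452). Gal3st1 changed by -0.32 ± 0.11 and was lower in 6 of 6 same-numbered pairs, and Cnp by -0.30 ± 0.22 in 5 of 6. Mag changed by -0.07 ± 0.28. Mbp changed by -0.28 ± 0.59 on the brightest probe, and a second Mbp probe of another transcript, above background on all 12 arrays, differed by 0.41 the other way (no test). Opalin, a membrane protein of mature cells, fell at 9 h by 1.05 ± 0.32, with -5.60, -5.33 and -4.59 in blocked arrays and -4.47, -3.88 and -4.01 in untreated arrays. That call passed (limma adjusted p = 0.0436), and at 26 h Opalin changed by 0.13 ± 0.32.

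S1pr5, a sphingosine phosphate receptor of mature cells, entered the test only through the groups where it was bright, blocked 9 h and untreated 26 h. Its log2 levels were -7.83, -6.85 and -5.61 in blocked 9 h arrays and -8.26, -7.68 and -8.61 in untreated 9 h arrays, and -7.90, -9.45 and -9.16 in blocked 26 h arrays and -7.56, -6.94 and -5.82 in untreated 26 h arrays. Untreated 9 h and blocked 26 h arrays were not well above background, so only bounds hold: at least 1.82-fold higher in blocked at 9 h and at least 2.06-fold lower in blocked at 26 h. The filter let this gene in through its bright groups, so its test supports nothing and the bounds are a description. Each bound sets the bright group's mean against, per array, the higher of the lowest signal well above background and the probe's own. The remaining myelin genes, Mog, Mobp, Ugt8, Fa2h, Aspa, Cldn11, Cd9 and Enpp2, had averaged changes of -0.53 to 0.19 and did not pass with or without the replicate block. Cldn11 passed the filter only through blocked 9 h, with 3 arrays well above background there and 2 in each other group. The untested genes Ermn and Nkx6-2 spanned -9.56 to -6.97 and -9.10 to -5.91 over the 12 arrays.

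Over the 24 tested genes, 20 changes were negative for the averaged blockade (S1pr5 among them), against 55.5% of all genes. The median was -0.30, and 2 were called lower and 0 higher (8 had an unadjusted p under 0.05, all lower). With the replicate block, 9 were called lower and 0 higher (5 precursor, 2 newly formed, 2 myelin), against 7.01% lower and 6.2% higher of all genes in that fit. Leaving out 1 of the 12 arrays kept the call for Cspg4 in 2 of 12 cases (limma adjusted p 0.0176 to 0.0986) and for Neu4 in 2 of 12 (limma adjusted p 0.0255 to 0.106), so both sit at the threshold. No member had all its blocked arrays apart from all its untreated arrays over both times (0.725% of all genes higher, 0.74% lower).

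**Figure D3:**
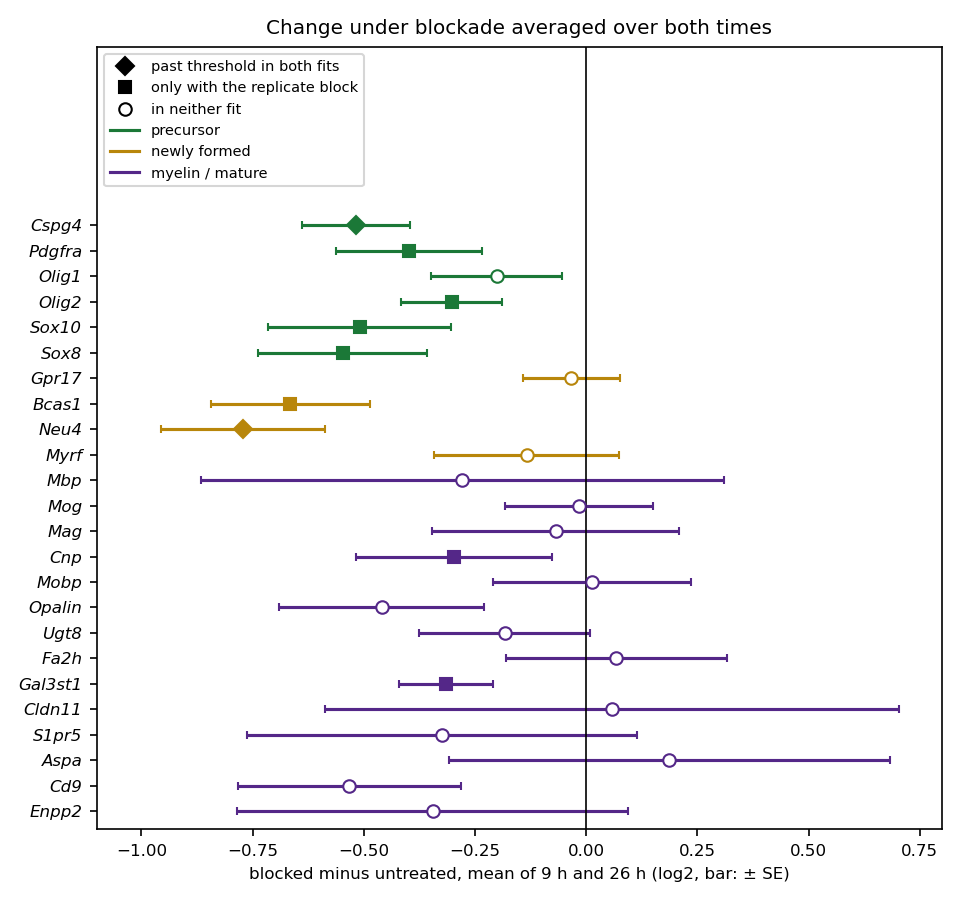
Blocked minus untreated, averaged over 9 h and 26 h, for the 24 tested genes (log2, bar ± SE from the fit without the block), coloured by stage. Filled diamonds passed the threshold in both fits, filled squares only with the replicate block, and open circles in neither. Cspg4 and Neu4 are the 2 diamonds, and no gene that passed lies right of 0.

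At 9 h, 3 of 24 members were called lower and 0 higher (Cspg4, Bcas1, Opalin; 7 had an unadjusted p under 0.05), against 9.62% lower and 11.4% higher of all genes. At 26 h, 3 were called lower and 0 higher (Olig1, Sox10, S1pr5; 7 unadjusted; 2 without S1pr5), against 9.52% lower and 6.88% higher. In this fit both shares lie near those of all genes, so these counts are not a result about the lineage. Olig1 fell by 0.87 ± 0.21 at 26 h (limma adjusted p = 0.0208) and Sox10 by 0.98 ± 0.29 (limma adjusted p = 0.0457), and the untreated 26 h group had the highest mean for both. On leaving out 1 of the 12 arrays, the calls for Cspg4 and Bcas1 at 9 h held in 12 of 12 cases, Opalin at 9 h in 4, Olig1 at 26 h in 8, Sox10 in 3 and S1pr5 in 4. The Bcas1 call at 9 h also did not hold without the 4 arrays of replicate 3. With the replicate block, 9 were lower and 2 higher at 9 h, and 11 lower (10 without S1pr5) and 0 higher at 26 h, against 35.9% of all genes at 9 h (17.4% lower, 18.4% higher) and 31.9% at 26 h (18.6% lower, 13.3% higher). With the block the members called lower are a larger share than among all genes at both times, where blockade and scan day cannot be told apart. The replicate number, which the block takes out, held a median of 40.2% of the variation in the members and 19.9% over all genes. The part of this in the larger shares of calls with the block, here and averaged over both times, was not tested. Mbp (lower), Mag (higher), Olig1 (higher), Pdgfra, Sox8, Neu4, Ugt8 and Gal3st1 (lower) were added at 9 h by the block, and Pdgfra, Olig2, Sox8, Gpr17, Neu4, Mag, Cnp and Enpp2 (all lower) at 26 h. Arrays of blocked and untreated cultures did not overlap for 4 members lower and 1 higher at 9 h (16.4% and 18.7% of all genes) and for 5 lower at 26 h (21.8%). S1pr5, below background in blocked 26 h arrays, is among the 5.

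The 26 h minus 9 h effect, averaged over treatments, called 1 member higher and 0 lower (4 unadjusted), against 4.87% and 7.75% of all genes. This was Cspg4, higher by 0.48 ± 0.12 (limma adjusted p = 0.0282), which rests on the low blocked 9 h arrays and held in 4 of 12 cases on leaving out 1 array. With the replicate block 8 were higher and 0 lower, against 26.8% of all genes (11.8% higher, 15% lower). The blockade effect at 26 h minus that at 9 h, which cannot be told apart from scan day, called 5 members (2 higher, 3 lower; 4 without S1pr5), against 28.7% of all genes (12.8% higher, 15.9% lower). With the replicate block it called 5 higher and 6 lower (S1pr5 among the lower), against 44.4% (19.9% higher, 24.6% lower).

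Of the myelin genes, 8 of 14 differed by replicate number, not all in 1 direction. Cldn11 is 1 of the 8, and its replicate 1 values outside blocked 9 h were not well above background. Among the 8, Gal3st1 had its lowest mean in replicate 3 (-3.60, -3.52 and -3.83 for replicates 1 to 3). Fa2h, also among them, had replicate 3 highest in 2 of the 4 groups. Mbp, the basic protein of compact myelin, had log2 levels of -1.68, -0.37 and 0.08 in blocked 9 h arrays (replicates 1 to 3) and -1.06, 0.27 and 1.27 in untreated 9 h arrays. At 26 h it had -1.13, 0.37 and 1.32 in blocked arrays and -1.16, -0.34 and 1.28 in untreated arrays. Replicate 1 was lowest and replicate 3 highest in all 4 groups, with means over groups of -1.26, -0.02 and 0.99 (limma F test of the replicate number, adjusted p = 0.000231). A second Mbp probe, of another transcript, did not follow the number. It had -3.43, -3.06 and -3.24 in blocked 26 h arrays, above all of the untreated 26 h arrays at -4.17, -4.16 and -4.33, and differed by -0.15 at 9 h.

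Mag, a myelin glycoprotein next to the axon, had log2 levels of -1.90, -1.41 and -1.07 in blocked and -2.65, -1.77 and -1.38 in untreated 9 h arrays, and -2.44, -2.02 and -1.40 in blocked and -1.90, -1.28 and -0.85 in untreated 26 h arrays (limma F test adjusted p = 0.000413). Enpp2, autotaxin, had -4.15, -3.02 and -2.08 in blocked and -3.83, -3.29 and -2.29 in untreated 9 h arrays, and -4.36, -3.24 and -2.73 in blocked and -3.37, -2.82 and -1.91 in untreated 26 h arrays (limma F test adjusted p = 0.000274). For both, replicate 1 was lowest and replicate 3 highest in all 4 groups.

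Of the 24 members, 14 passed the F test for replicate number (3 of 6 precursor, 3 of 4 newly formed and 8 of 14 myelin), against 29.9% of all genes. Replicate 3 was highest in all 4 groups for 9 members (0 precursor, 1 newly formed, 8 myelin), against 22% of all genes. Replicate 1 was lowest in all 4 for 12, against 15% of all genes, and both held for 6, against 8.18%. Cldn11 is in each of these counts. Its replicate 1 values were -8.00 in untreated 9 h, -8.59 in blocked 26 h and -8.60 in untreated 26 h. The lowest signals well above background on those arrays were -7.63, -7.45 and -7.90. Its place in the counts therefore rests in part on signal at background. Beside the members, 7 of 8 tested meningeal and fibroblast markers and 3 of 3 choroid plexus markers passed the same F test, with medians of 2.23 and 1.69 log2 for replicate 3 minus the mean of 1 and 2. Summed choroid plexus signal was 0.613 to 21 in blocked 9 h, 0.936 to 20.9 in untreated 9 h, 1.03 to 17.5 in blocked 26 h and 0.831 to 14.8 in untreated 26 h arrays, with Kl never above background. The summed meningeal and fibroblast signal was 1.08 to 13 in blocked 9 h, 2.34 to 13.6 in untreated 9 h, 1.65 to 16.1 in blocked 26 h and 2.15 to 13.7 in untreated 26 h arrays. Ptgds, which both meninges and oligodendrocytes express, had replicate means of -6.54, -5.78 and 0.57. Ttr, the transthyretin gene of choroid plexus, had -0.59, 0.60 and 4.17, and the astrocyte gene Gfap 1.92, 2.40 and 2.94. The part of these other cells in the differences between replicate numbers was not tested. Bulk signal does not tell which cells gave the transcripts of Enpp2, Cldn11 or the other members.

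**Figure D4:**
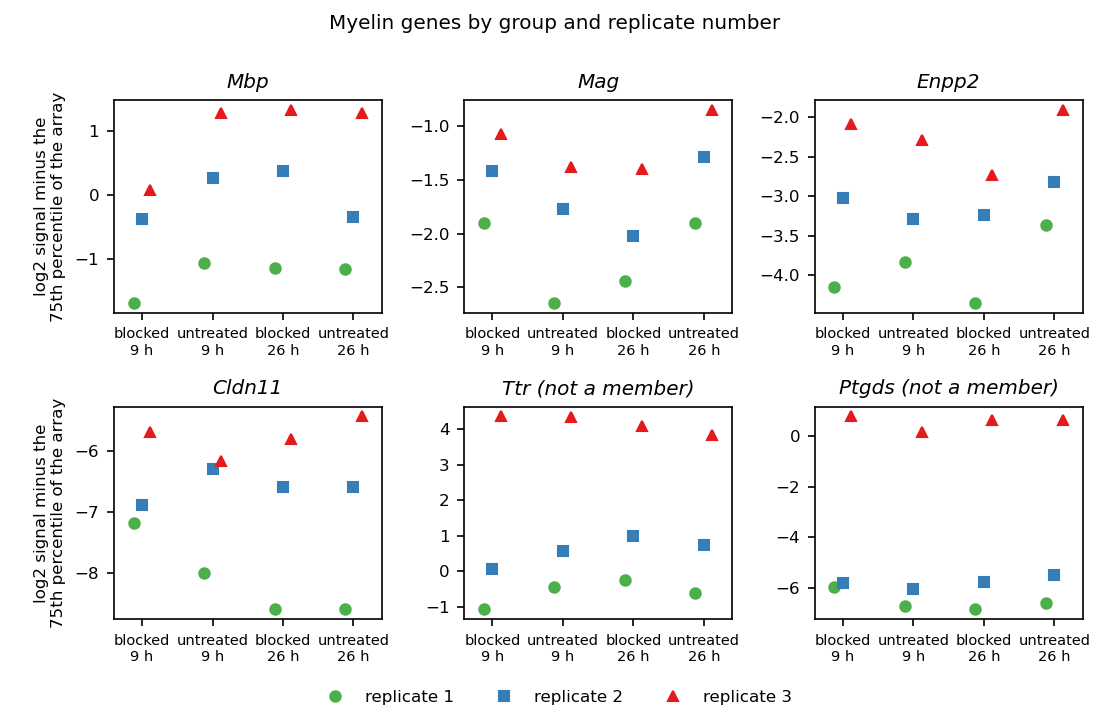
Log2 level of 4 myelin genes (Mbp, Mag, Enpp2, Cldn11) and 2 genes outside the list (Ttr, Ptgds) by group, blocked left of untreated at each time. Points are single arrays, coloured by replicate number. Replicate 1 is lowest and replicate 3 highest in all 4 groups for the 4 genes of the myelin list, and Ttr and Ptgds are high in replicate 3. Replicate 1 of Cldn11 is not well above background outside blocked 9 h.

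The share of a gene's variation over the 12 arrays was divided between blockade, time, the scan day, replicate number and residual, where the scan day term is also the interaction of blockade with time. In precursor genes the median shares were 33.3% for blockade and 31.8% for replicate number. In newly formed genes they were 20.4% and 24.9%, and in myelin genes 1.99% and 56.9%. Over all genes the medians were 4.67% and 19.9%.

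**Figure D5:**
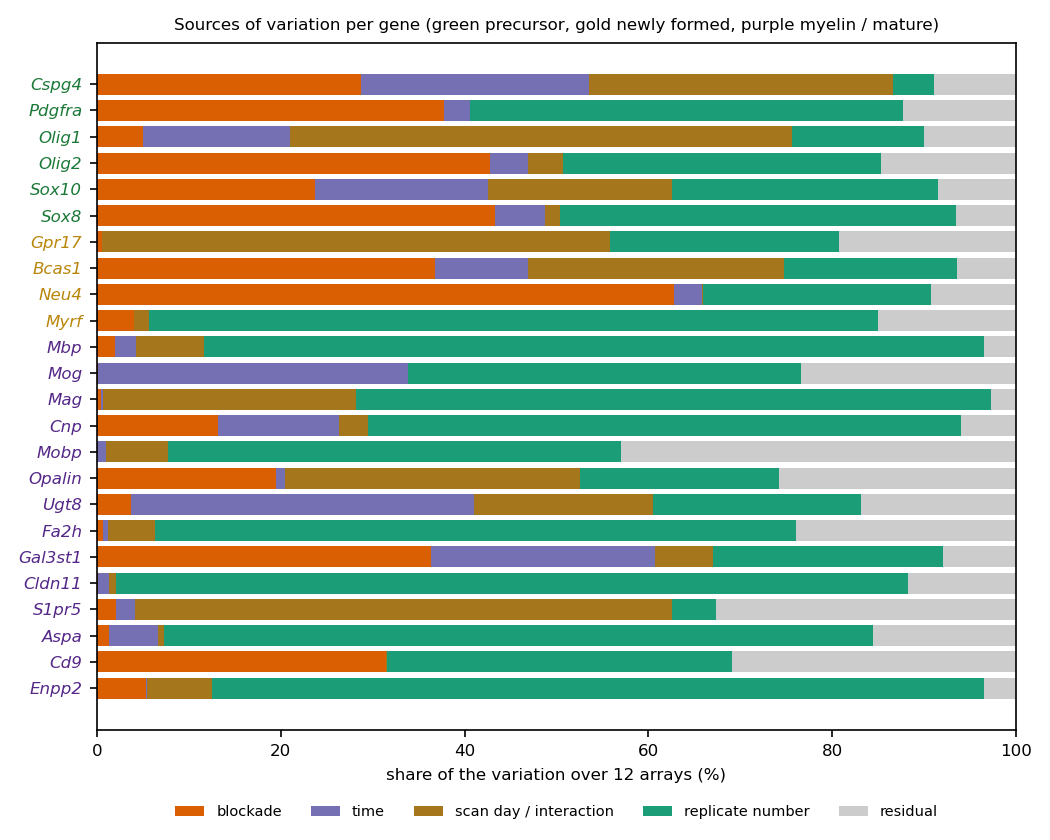
Share of the variation over the 12 arrays (%) for the 24 tested genes, split into blockade, time, scan day or interaction (which cannot be told apart), replicate number and residual. Mbp and Enpp2 are mostly replicate number, and Neu4 mostly blockade. Cldn11 is also mostly replicate number, in part on arrays where it was not well above background.

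Of 41 other lineage genes, 32 were tested. For the averaged blockade 1 rose and 1 fell, against 2.24% higher and 2.21% lower of all genes. Gpr37, a receptor of maturing oligodendrocytes, rose by 0.45 ± 0.09 (limma adjusted p = 0.0228). Evi2a, a membrane protein, fell by 1.16 ± 0.10 (limma adjusted p = 0.000146). The median of the list was -0.14. With the replicate block 2 were higher and 5 lower, against 6.2% and 7.01% of all genes in that fit. Of 47 genes that signal to or regulate the lineage, 42 were tested and 3 fell, against 2.21% of all genes. Bdnf, a neurotrophin, fell by 2.59 ± 0.11 (limma adjusted p = 3.88e-06). Igf1, which promotes oligodendrocyte growth, fell by 0.70 ± 0.14 (limma adjusted p = 0.0219), and Nrg1, an axonal ligand of ErbB receptors, by 0.67 ± 0.13 (limma adjusted p = 0.0185). With the block 1 was higher and 7 lower, against 6.2% and 7.01% of all genes in that fit, and Hdac2 was never above background.

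Of the markers of other cell types, 2 passed for the averaged blockade. Slco1c1, an astrocyte transporter, fell by 0.68 ± 0.14 (limma adjusted p = 0.0197) and Abcc9, a pericyte channel subunit, rose by 1.22 ± 0.22 (limma adjusted p = 0.0122). No other gene of the astrocyte, microglia, meningeal, choroid plexus, pericyte, Schwann, neuronal and proliferation lists passed in the fit without the block. With the replicate block (limma adjusted p in parentheses), Fgfr3 (0.00134) and Aqp4 (0.0481) of the astrocyte list, Lum (0.0213) of the meningeal list, Prx (0.00148) of the Schwann list and Nefl (0.0268) of the neuronal list were lower, and Pecam1 (0.0474) of the vascular list was higher. Summed astrocyte signal was 40 to 75.1 in blocked 9 h and 47.4 to 82.6 in untreated 9 h arrays, and 50.5 to 61.9 in blocked 26 h and 67 to 93.6 in untreated 26 h arrays, the 26 h ranges not overlapping. At 26 h, where blockade and scan day cannot be told apart, 21.8% of all genes had blocked arrays below all untreated ones. Of the 11 tested astrocyte genes, 0 passed at 26 h in the fit without the block. With it 3 were lower and 0 higher, against 18.6% and 13.3% of all genes. The sum is weighted to the brightest probes. Proliferation markers summed to 0.768 to 1.07 in blocked 9 h and 1.2 to 1.58 in untreated 9 h arrays, and 0.861 to 1.15 in blocked 26 h and 1.03 to 1.16 in untreated 26 h arrays. Averaged over times, 0 of 5 proliferation genes passed and 5 were lower with the replicate block, against 7.01% of all genes lower in that fit. At 9 h 4 of the 5 were called lower in the fit without the block, against 9.62% of all genes. Blockade at 9 h cannot be told apart from scan day. Schwann cell markers, a peripheral glial list that shares Erbb3 with the signalling list, summed to 0.0357 to 0.0594 in blocked 9 h and 0.0352 to 0.0852 in untreated 9 h arrays, and 0.0224 to 0.059 in blocked 26 h and 0.0401 to 0.0772 in untreated 26 h arrays. The part of astrocyte content and proliferation in the precursor and newly formed values was not tested.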

How the data were processed

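Total RNA of 12 cultures was labelled and hybridised to single-colour arrays. Spot intensity was extracted by the authors with Feature Extraction 10.5.1.1, per the file headers, which name build rn4, and the deposited processed intensity is background-subtracted and spatially detrended within the array, per the same headers. The deposited log2 values in the series matrix served as an alternative, and the quality flags as deposited marked outlier spots. Of 42877 non-control spots giving 30367 probes, 5671 outlier spot values were left out and 24034 probes with signal well above background in all arrays of a group were kept. Each array's 75th percentile was subtracted from its log2 intensity. RefSeq transcripts named 18004 of the probes, 12363 staying unnamed.

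limma 3.58.1 in R 4.3.3 was fitted with 1 mean per group, 3 arrays in each of 4 groups, on the arrays' whole gene set, with Benjamini-Hochberg adjustment at 0.05. The p-values of this plain fit measure the spread within groups of 3 independent cultures, pooled over the 4 groups. Those of the fit with the replicate block, and of the F test, measure the spread left after the replicate number is taken out. The replicate numbers were checked for pairing. Same-numbered blocked and untreated arrays of 1 time correlated in their deviations from the group means at 0.174 to 0.656 (6 pairs). Over any 2 groups, which the block spans, same-numbered arrays correlated at -0.0366 to 0.683 (18 pairs). Arrays of different numbers correlated at -0.572 to 0.118 (36 pairs), so the ranges overlap. Same-numbered arrays were taken as pairs on that basis, since the labels do not say what a number marks. The fit with the replicate number as an additive block is given beside member results it changes. Promoter sequences came from RefSeq on GRCr8. The members and the lists were chosen with earlier results of these data known. Every gene on the list is named. Per-array values are given for members past the averaged blockade threshold, for Cspg4, Bcas1 and Mbp, and for the 3 members with the smallest replicate F test p; those of Olig1, Opalin and S1pr5 were added after their values were seen. The list of other lineage genes leaves out 1 gene that is not reported here.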

Additional observations from a re-analysis of the deposited data

Results flagged for a closer look

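The interaction term of limma passed for 5 members, 4 without S1pr5, which the filter let in through the groups where it is bright. The difference (26 h minus 9 h, log2) was 1.11 for Cspg4 (limma adjusted p = 0.007), 1.16 for Bcas1 (0.0351), -1.33 for Olig1 (0.00774), -0.69 for Gpr17 (0.0369) and -3.48 for S1pr5 (with 2 of its groups below background, so that this fitted value is no bound and its test supports nothing). For Bcas1 the second probe gave -0.31 (no test), the mean of both probes gave 0.42 (limma adjusted p = 0.404), and the call was lost with quantile normalization (0.0501), with the slide block (0.098) and in 8 of 12 cases on leaving out 1 array. For Gpr17 it was lost with the slide block (0.102) and in 8 of 12 cases, and for Cspg4 with the slide block (0.0583). Without the 4 arrays of replicate 3, the calls for Cspg4, Olig1, Gpr17 and Bcas1 were lost. This term equals the difference between the scan days, so that time dependence and scan day cannot be told apart, and 28.7% of all genes passed it, against 5 of the 24 members.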

How the results depend on the processing

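The limits are 3 arrays per group, 6 slides and 2 scan days that cross the groups, and array intensities near background for S1pr5 and Cldn11. For the averaged blockade, where 2 members passed, 1 passed with quantile normalization, 1 with the median of the array (with quantile normalization Cspg4 passed and Neu4 did not, and with the median Bcas1 passed and neither Cspg4 nor Neu4 did), 0 with the deposited matrix values (6 with an unadjusted p under 0.05), 0 with no filter on dim probes (8 unadjusted), 9 with the replicate block and 7 with the slide block. At 9 h, where 3 passed, the replicate block gave 11. At 26 h, where 3 passed, the deposited matrix gave 1, no filter 1 and the replicate block 11 (S1pr5 among the 3 and the 11). For 26 h minus 9 h, where 1 passed, quantile normalization gave 3, the median of the array 2, the replicate block 8 and the slide block 6. For the interaction, where 5 passed, the replicate block gave 11 and the slide block 2, with S1pr5 counted in each. The pairing behind the replicate block rests on the check of same-numbered arrays, whose correlations overlapped those of arrays of different numbers. Each slide held arrays of 1 replicate number, so the slide block is no check apart from the replicate block. Without single arrays, or without replicate 3, the counts ran from 0 to 2 for the averaged blockade (limma, 4 to 9 members unadjusted where the count was 0), 2 to 4 at 9 h, 0 to 5 at 26 h (4 to 6 unadjusted where 0), 0 to 1 for time (2 to 6 unadjusted where 0), 1 to 5 for the interaction and 10 to 14 for replicate number. Of 2952 single-member values recomputed, 2724 kept their side of the threshold and direction, 146 lost it, 82 gained it and 0 called values changed sign. Under the 4 other scalings and background settings, 0 to 3 of the 24 members changed sign in a comparison, none of them called. Normexp put the median of all genes at -0.18 for the interaction, against -0.07. The causes of these changes were not tested.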
